A study of Homo sapiens with 6 samples.

Results

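Expression of the 8 genes that encode the PI4KA complex was examined in HEK293 cells that received DMSO, the solvent control, or the inhibitor GSK-A1. The genes were taken by symbol: the kinase PI4KA, its partners TTC7A, TTC7B, HYCC1, HYCC2, EFR3A and EFR3B, and the membrane protein TMEM150A. They are 8 of the 63140 genes counted, and all 8 were among the 16754 genes with enough counts to be tested. HYCC1 and HYCC2 are the present symbols of FAM126A and FAM126B. HEK293 is a human embryonic kidney cell line, and the labels name no added gene, deletion or clone in either group. Confluent cells were given 100 nM GSK-A1, an inhibitor of PI4KA, and both groups were sampled at 24 h, with 3 libraries per group labelled as biological replicates. The labels do not say whether the replicates came from separate cultures, so p-values measure the spread between these libraries only. One cell line, 1 dose and 1 time point were studied.

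PI4KA makes phosphatidylinositol 4-phosphate at the plasma membrane, the lipid from which phosphatidylinositol 4,5-bisphosphate is then formed. The kinase reaches the membrane as part of a complex: EFR3 proteins are lipid-anchored there, TTC7 proteins link EFR3 to the kinase, and HYCC proteins bind TTC7 and stabilise the assembly. TMEM150A is a multi-pass membrane protein that can take part in the complex with EFR3. EFR3, TTC7 and HYCC each exist as paralog pairs, so a cell can build the complex from different combinations. GSK-A1 acts on the enzyme, so the level of PI4KA mRNA is not a check that the drug worked.

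The libraries held between 33040178 and 47777233 counts assigned to genes. All carried the same 2 lane labels. GSK-A1 replicate 2 stood somewhat apart, with correlations of 0.995 and 0.994 with GSK-A1 replicates 1 and 3, which correlated at 0.997 with each other, as did each pair of DMSO libraries (Pearson r of log2 normalised counts across genes). Of the 8 HEK293 markers examined, 6 were measured at 1.93 CPM or more (normalised read counts scaled to a common library size) in every library, and NEFM and INA were at or near 0. The markers of blood, endothelium, fibroblasts and hepatocytes were at 0.880 CPM or less in every library, except COL1A1 at 4.86 to 7.24 CPM. Bulk RNA cannot tell apart fewer cells that express a gene and less RNA per cell.

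Of the complex genes, 3 rose with GSK-A1 and none passed the threshold as lower. EFR3B rose by 32.2%, HYCC2 by 18.1% and TTC7B by 9.47%, while PI4KA, TTC7A, HYCC1, EFR3A and TMEM150A did not pass the threshold. A gene was called changed at an adjusted p under 0.05 in edgeR's quasi-likelihood test, adjusted by Benjamini-Hochberg over all tested genes. By that rule 3 of 8 complex genes were higher, against a background of 12.0% of all tested genes higher and 10.9% lower (22.9% in either direction, 3835 genes). At an adjusted p under 0.01 the call covered 11.2% of all genes, and of the complex EFR3B and HYCC2. Without adjustment, 3 complex genes were higher and 1, EFR3A, lower at p under 0.05, against 18.1% and 17.7% of all genes (35.8% in either direction). DESeq2 also called 3 higher and 0 lower, against 10.5% and 7.14% of all tested genes (17.7% in either direction), and limma-voom with library weights called 3 higher and 1 lower, against 16.8% and 16.7% (33.4% in either direction). With each library's trend of log2 CPM on GC content removed, 3 were higher and 2 lower, HYCC1 and EFR3A. That compares with 13.3% and 12.2% of all genes (25.6% in either direction). With a term for replicate number 3 were called, against 24.6% of all genes. The libraries of the groups did not overlap for 4 of the 8 genes, beside 40.5% of all tested genes. The median log2 fold change of the complex genes was -0.01, the same as that of all tested genes, and their median size of change was 0.09 beside 0.12. With upper-quartile scaling, 2 complex genes were higher and 1 lower, as TTC7B missed the threshold and EFR3A passed it, against 7.99% and 16.0% of all genes (24.0% in either direction). In that analysis 33.3% of the called genes were higher in place of 52.3%, and the median of all genes moved to -0.05.

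**Figure D1:**
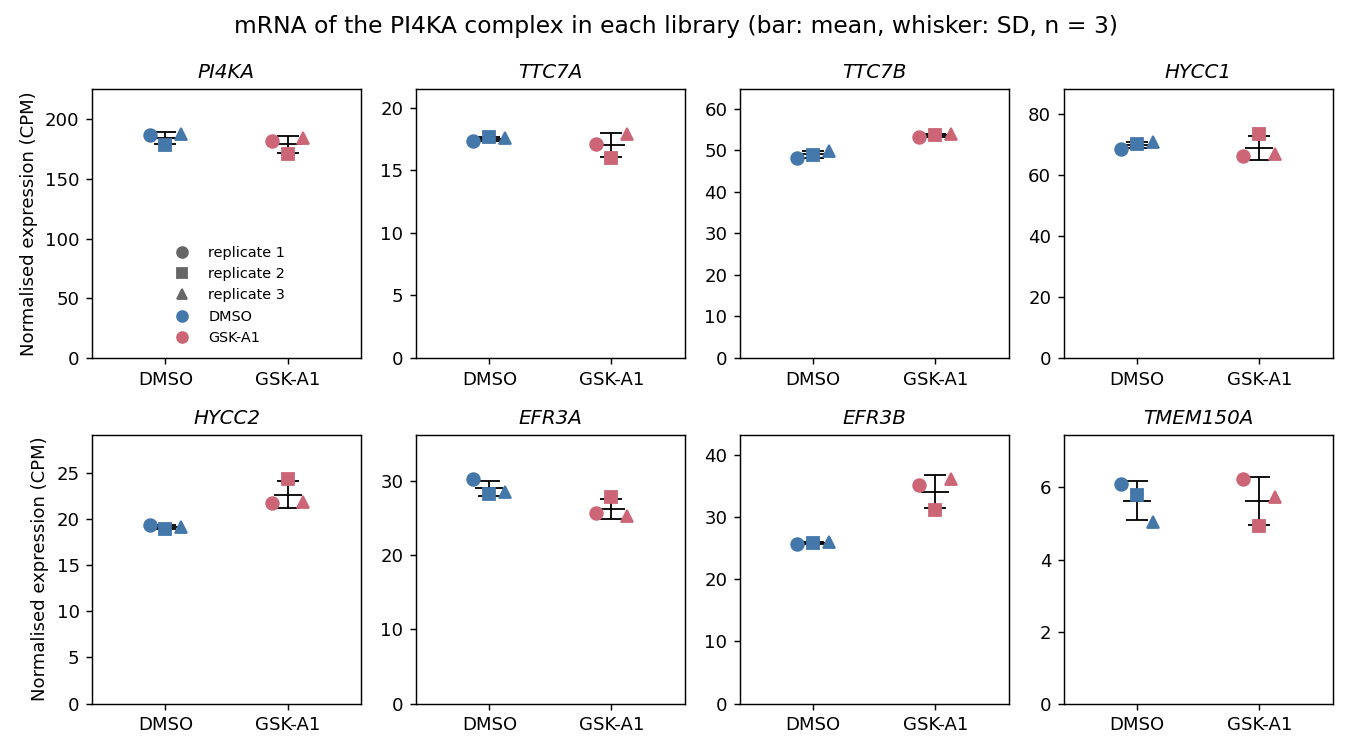
Normalised expression (CPM, linear axis from 0) of the 8 complex genes in each library, with DMSO in blue, GSK-A1 in red, a symbol for each replicate, bars at the mean and whiskers of 1 SD (n = 3). All 3 GSK-A1 libraries lie above all 3 DMSO libraries for TTC7B, HYCC2 and EFR3B and below them for EFR3A.

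The promoters of EFR3B and TTC7B, which rose, and of PI4KA, which did not pass the threshold, are shown to give the sequence at their start sites. They were taken from RefSeq (GRCh38.p14), which had an entry for 6 of the 8 members, all but EFR3A and HYCC2. Each window runs from 250 bases before to 50 after a start site, printed 5′ to 3′ on the gene's strand, with matches to searched motifs in capitals. EFR3B had 2 start sites, at chr2:25041826-25042125 and chr2:25042213-25042512 (both plus strand). The windows of TTC7B and PI4KA lie at chr14:90816381-90816680 and chr22:20858762-20859061 (both minus strand).
EFR3B upstream window: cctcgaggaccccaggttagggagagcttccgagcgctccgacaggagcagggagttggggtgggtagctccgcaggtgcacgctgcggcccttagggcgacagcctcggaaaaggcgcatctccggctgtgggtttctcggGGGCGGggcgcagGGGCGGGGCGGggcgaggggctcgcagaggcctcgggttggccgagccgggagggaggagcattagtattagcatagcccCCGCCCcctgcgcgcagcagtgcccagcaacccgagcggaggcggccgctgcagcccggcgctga
EFR3B downstream window: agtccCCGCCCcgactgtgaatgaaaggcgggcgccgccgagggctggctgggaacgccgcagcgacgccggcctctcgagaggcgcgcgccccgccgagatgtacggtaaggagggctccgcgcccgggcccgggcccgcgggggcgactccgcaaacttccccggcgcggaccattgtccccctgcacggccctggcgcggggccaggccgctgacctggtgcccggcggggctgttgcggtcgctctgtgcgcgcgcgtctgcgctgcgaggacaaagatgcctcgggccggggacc
TTC7B window: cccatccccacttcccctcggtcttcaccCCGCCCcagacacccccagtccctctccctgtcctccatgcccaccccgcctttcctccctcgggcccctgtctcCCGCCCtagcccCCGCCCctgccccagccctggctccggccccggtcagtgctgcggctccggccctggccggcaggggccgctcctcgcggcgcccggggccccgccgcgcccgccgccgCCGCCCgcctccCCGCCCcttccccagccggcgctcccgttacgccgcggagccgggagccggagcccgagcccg
PI4KA window: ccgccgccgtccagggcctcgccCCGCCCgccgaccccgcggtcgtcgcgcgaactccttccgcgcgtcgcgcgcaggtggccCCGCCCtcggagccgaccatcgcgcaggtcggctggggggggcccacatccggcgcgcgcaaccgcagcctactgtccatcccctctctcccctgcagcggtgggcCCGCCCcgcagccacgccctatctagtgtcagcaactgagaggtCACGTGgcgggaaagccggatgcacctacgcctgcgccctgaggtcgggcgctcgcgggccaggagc

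The GC box GGGCGG, searched on both strands, occurred 4 times and 1 time in the windows of EFR3B, 5 times in that of TTC7B and 3 times in that of PI4KA. Of the other members with an entry, none of which passed the threshold, TTC7A held it 4 times, HYCC1 3 times, and the windows of TMEM150A 3 times and 1 time. It occurred in 45.0% of all 35116 RefSeq windows of that length, a share not matched for GC content. The windows are rich in GC, at 72.0% and 76.3% for EFR3B, 80.7% for TTC7B and 75.7% for PI4KA. The PI4KA window also held 1 E box CACGTG, which 7.26% of all windows held. The windows of EFR3B and TTC7B held no match to that E box. Nor did they match the EGR motif GCGTGGGCG (0.795% of all windows) or the AP-1 motif TGANTCA (7.71%). The CRE TGACGTCA (1.85%), the CCAAT box (34.6%) and the CArG box (1.29%) were also without a match there.

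PI4KA is the catalytic subunit and lies on chromosome 22 (ENSG00000241973, GRCh38, 20707691 to 20859417, minus strand). It was measured at 187, 179 and 188 CPM in the DMSO libraries and at 182, 171 and 184 CPM in the GSK-A1 libraries. The groups overlapped, and GSK-A1 replicate 2 held the lowest value. The log2 fold change was -0.04 ± 0.04 (SE), with a 95% interval from -0.13 to 0.04, which is a change between -8.41% and 2.75% (edgeR adjusted p = 0.456). PI4KA has 2 near-copies, the pseudogenes PI4KAP1 and PI4KAP2, and 16.3% of the runs of 50 bases in its longest transcript are found in another gene too. Both pseudogenes were listed at 0 counts in all 6 libraries, so reads from the shared stretches could be missing from the PI4KA count or be included in it, and its level is uncertain to that extent.

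TTC7A and TTC7B encode the scaffold that joins the kinase to EFR3. TTC7B (ENSG00000165914, chromosome 14, 90524564 to 90816479, minus strand) was measured at 48.2, 48.9 and 49.9 CPM with DMSO and at 53.2, 53.7 and 54.0 CPM with GSK-A1. Every GSK-A1 library was above every DMSO library, and the 3 treated values were within 1 CPM of each other. The log2 fold change was 0.13 ± 0.04, with a 95% interval from 0.04 to 0.22 (edgeR adjusted p = 0.0322). TTC7B passed the threshold in 10 of the 16 other analyses, with estimates of 0.09 to 0.15. It missed the threshold with upper-quartile scaling (0.09, edgeR adjusted p = 0.125) and when DMSO replicate 1, 2 or 3 or GSK-A1 replicate 1 or 3 was left out, with estimates of 0.12 to 0.14 and an edgeR adjusted p of 0.0633 to 0.127. It passed without GSK-A1 replicate 2. TTC7A (ENSG00000068724, chromosome 2, 46916157 to 47076137, plus strand) is the paralog whose loss in humans causes intestinal and immune disease. It was measured at 17.3, 17.7 and 17.6 CPM with DMSO and at 17.1, 16.02 and 17.9 CPM with GSK-A1. The groups overlapped, and the log2 fold change was -0.04 ± 0.06 with a 95% interval from -0.17 to 0.09 (edgeR adjusted p = 0.681). MCFD2, on the opposite strand, overlaps 2.22% of the exon sequence of TTC7A and rose from 141 to 154 CPM (edgeR adjusted p = 0.0204).

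HYCC1 and HYCC2 encode hyccin and its paralog, the subunits that hold the TTC7 scaffold, and loss of HYCC1 in humans causes a disease with too little myelin. HYCC2 (ENSG00000155744, chromosome 2, 200973718 to 201071671, minus strand) was measured at 19.4, 18.9 and 19.1 CPM with DMSO and at 21.8, 24.3 and 21.9 CPM with GSK-A1. The groups did not overlap, and GSK-A1 replicate 2 held the highest value. The log2 fold change was 0.24 ± 0.06, with a 95% interval from 0.12 to 0.36 (edgeR adjusted p = 0.00731). HYCC2 passed the threshold in all 16 other analyses. With the trend of log2 CPM on GC content removed its estimate was 0.15, and HYCC2 is a gene of low GC content at 35.9%. Its neighbour NDUFB3 on the opposite strand, which overlaps 1.70% of its exon sequence, fell from 39.9 to 35.9 CPM (edgeR adjusted p = 0.0237). HYCC1 (ENSG00000122591, chromosome 7, 22889371 to 23014130, minus strand) was measured at 68.7, 70.3 and 70.8 CPM with DMSO and at 66.2, 73.6 and 67.0 CPM with GSK-A1. GSK-A1 replicate 2 was above all DMSO libraries and the other 2 treated libraries were below them. The log2 fold change of HYCC1 was -0.02 ± 0.05, with a 95% interval from -0.12 to 0.08 (edgeR adjusted p = 0.780). With the GC trend removed it was -0.10 (edgeR adjusted p = 0.0306), and its GC content is 37.7%.

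EFR3A and EFR3B encode the palmitoylated anchors that place the complex on the inner face of the plasma membrane, and the fold changes of these paralogs had opposite signs. EFR3B (ENSG00000084710, chromosome 2, 25042130 to 25159137, plus strand) was measured at 25.6, 25.8 and 26.0 CPM with DMSO. With GSK-A1 it was measured at 35.1, 31.1 and 36.0 CPM. The DMSO libraries lay within 1 CPM of each other, all 3 GSK-A1 libraries were above them, and GSK-A1 replicate 2 was the lowest treated library. EFR3B rose 1.32-fold, a log2 fold change of 0.40 ± 0.06 with a 95% interval from 0.28 to 0.52 (edgeR adjusted p = 1.25e-04), and ranked 284 of 16754 genes by p. It passed the threshold in all 16 other analyses, with estimates from 0.36 to 0.47. Without GSK-A1 replicate 2 the estimate was 0.47.

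EFR3A (ENSG00000132294, chromosome 8, 131904088 to 132013642, plus strand) was measured at 30.2, 28.2 and 28.5 CPM with DMSO and at 25.6, 27.7 and 25.3 CPM with GSK-A1. All 3 treated libraries were below all 3 DMSO libraries, with GSK-A1 replicate 2 nearest to them. The log2 fold change of EFR3A was -0.15 ± 0.05, with a 95% interval from -0.26 to -0.03, and missed the threshold (edgeR adjusted p = 0.0609). It passed in 5 of the 16 other analyses, among them the one without GSK-A1 replicate 2, at -0.18 (edgeR adjusted p = 0.00297), and the one with the GC trend removed, at -0.22 (edgeR adjusted p = 0.00147). Its GC content is 38.3%, beside 54.1% for EFR3B. In GSK-A1 replicate 2 the 3 complex genes of lowest GC content, HYCC2, HYCC1 and EFR3A, were each the highest of the treated libraries, and the part of GC content in the results was not tested beyond the values given.

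TMEM150A (ENSG00000168890, chromosome 2, 85598548 to 85603196, minus strand) was the member with the fewest reads. It was measured at 6.09, 5.78 and 5.04 CPM with DMSO and at 6.22, 4.92 and 5.74 CPM with GSK-A1. The groups overlapped. The log2 fold change was -0.0028 ± 0.10, with a 95% interval from -0.22 to 0.21 (edgeR adjusted p = 0.988), and its sign turned in 8 of the 16 other analyses. The interval covers changes from -14.2% to 16.1%, and so includes a shift the size of that of TTC7B.

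**Figure D2:**
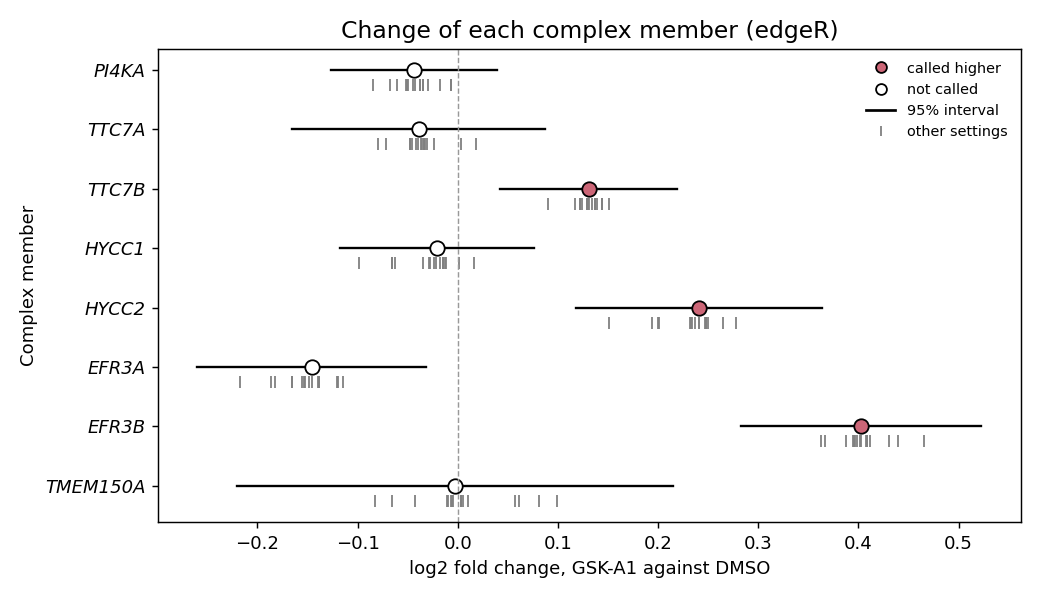
Log2 fold change of each complex gene, GSK-A1 against DMSO, with 95% intervals (edgeR, n = 3 per group); filled points passed an adjusted p of 0.05 and the small ticks are the estimates from the 16 other analyses. All 16 ticks lie above 0 for TTC7B, HYCC2 and EFR3B and below 0 for EFR3A and PI4KA.

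The within-group SD on the log2 scale ran from 0.02 for TTC7B to 0.16 for TMEM150A, beside a median of 0.08 over all tested genes. EFR3B was at the median, at 0.08, and the other 5 genes lay between 0.05 and 0.06. With DMSO the coefficient of variation was 0.723% for EFR3B and 1.12% for HYCC2. With GSK-A1 it was 7.72% for EFR3B and 6.28% for HYCC2, and for both genes GSK-A1 replicate 2 was the library farthest from the other 2.

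The balance within each paralog pair was then compared inside each library, where scaling between libraries plays no part. The share is that of counts per kilobase of the longest transcript of each gene. In all 3 pairs the paralog that rose had a higher share with GSK-A1, and the libraries of the groups did not overlap. As that paralog rose and its partner did not, a higher share follows from the fold changes above and is no separate result. For single genes, the groups did not overlap for 40.5% of all tested genes. The exact permutation test (two-sided, 3 libraries against 3) gave p = 0.1 for each pair, the smallest p it can give, and 0.1 after Benjamini-Hochberg adjustment over the 3 pairs. That test cannot take a share past 0.05 with 3 libraries per group.

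The EFR3 pair had the largest difference of the 3 pairs. EFR3B made up 38.3%, 40.1% and 40.0% of the pair with DMSO and 50.04%, 45.0% and 51.0% with GSK-A1. The mean went from 39.5% ± 1.01 to 48.7% ± 3.21 (SD, n = 3 each), a difference of 9.22 percentage points. With 1 library left out the difference was 8.06 to 11.1 points, lowest without GSK-A1 replicate 3 and highest without GSK-A1 replicate 2. The ratio of EFR3B to EFR3A counts was 0.849, 0.915 and 0.912 with DMSO and 1.37, 1.12 and 1.42 with GSK-A1, a 1.46-fold difference. The DMSO libraries thus held more EFR3A than EFR3B counts and the GSK-A1 libraries more EFR3B than EFR3A counts. The fitted log2 fold changes of EFR3B and EFR3A lay 0.55 apart, and from 0.49 to 0.65 apart over the other analyses.

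HYCC2 made up 28.5%, 27.5% and 27.6% of the HYCC pair with DMSO and 31.7%, 31.8% and 31.6% with GSK-A1. The mean went from 27.9% ± 0.52 to 31.7% ± 0.10, a difference of 3.81 points, and 3.65 to 4.11 with 1 library left out. GSK-A1 replicate 2, where both HYCC genes were highest, had a share within 1 point of the other treated libraries. HYCC1 was the larger part of the pair in every library, with a count ratio of HYCC2 to HYCC1 of 0.269 to 0.282 with DMSO and 0.327 to 0.330 with GSK-A1.

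TTC7B made up 42.4%, 42.4% and 43.0% of the TTC7 pair with DMSO and 45.1%, 47.0% and 44.4% with GSK-A1. The mean went from 42.6% ± 0.34 to 45.5% ± 1.37, a difference of 2.94 points. With 1 library left out the difference was 2.18 to 3.52 points, lowest without GSK-A1 replicate 2. The ratio of TTC7B to TTC7A counts was 2.77 to 2.84 with DMSO and 3.01 to 3.35 with GSK-A1, a 1.13-fold difference.

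**Figure D3:**
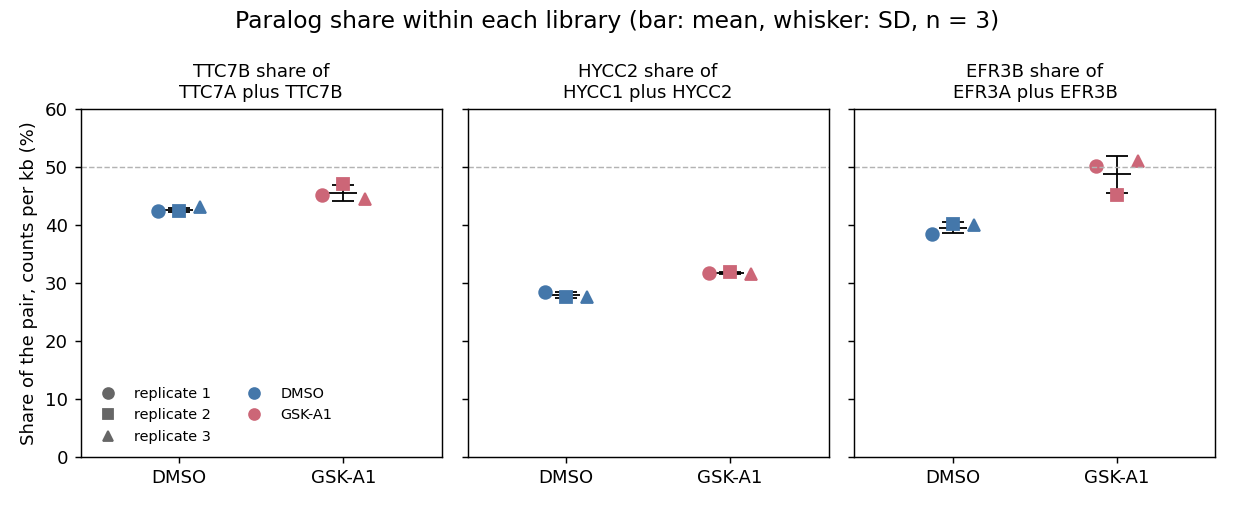
Share of each pair taken by TTC7B, HYCC2 and EFR3B in each library, in percent of counts per kb of the longest transcript (linear axis from 0, dashed line at equal shares), with means and SD (n = 3). The GSK-A1 libraries lie above the DMSO libraries in all 3 panels, with the widest gap for EFR3B, from 39.5% to 48.7%.

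The level of a share depends on the length assigned to each gene, and its shift much less. By coding length TTC7B made up 74.5% of its pair with DMSO and 76.7% with GSK-A1, so that TTC7B and not TTC7A was the larger part. The annotated longest transcript of TTC7B has 19458 bases against 5157 for TTC7A, while the coding lengths are 2532 and 2649 bases. By coding length EFR3B went from 48.1% to 57.4% of its pair and HYCC2 from 21.2% to 24.4%. By the union of all exons the shares went from 47.8% to 50.7% for TTC7B, from 23.6% to 27.1% for HYCC2 and from 34.3% to 43.2% for EFR3B. HYCC1 was the larger part of its pair by every length used, and with DMSO so was EFR3A. The larger part of the TTC7 pair, and of the EFR3 pair with GSK-A1, depended on the length.

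Levels of different genes were compared per kilobase of the longest transcript. With DMSO, PI4KA was the highest at 27.3 ± 0.76 CPM per kb (SD, n = 3). EFR3A at 5.32 ± 0.19 and HYCC1 at 5.31 ± 0.08 CPM per kb followed and overlapped. EFR3B at 3.47 and TTC7A at 3.40 CPM per kb came next, with ranges of 3.45 to 3.50 and 3.36 to 3.42 that lay close to each other. TTC7B at 2.52 and TMEM150A at 2.43 CPM per kb overlapped, and HYCC2 was lowest at 2.05 CPM per kb. The longest TMEM150A transcript, of 2323 bases, is annotated as one that retains an intron. The TMEM150A transcript with the longest coding sequence has 1776 bases. By the shorter length its level per kb would be higher, so its place in the order, in either group, depends on the transcript used.

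With GSK-A1 the order below PI4KA was not the same. PI4KA was at 26.5 CPM per kb, and HYCC1 at 5.23, EFR3A at 4.82 and EFR3B at 4.58 CPM per kb formed a run in which each overlapped the next. TTC7A at 3.30 and TTC7B at 2.76 CPM per kb followed. HYCC2 at 2.43 and TMEM150A at 2.42 CPM per kb overlapped. Per kilobase of coding sequence the order was another: HYCC1 led at 44.7 CPM per coding kb with DMSO, ahead of PI4KA at 29.3 and TTC7B at 19.4, and TTC7A was lowest at 6.61.

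**Figure D4:**
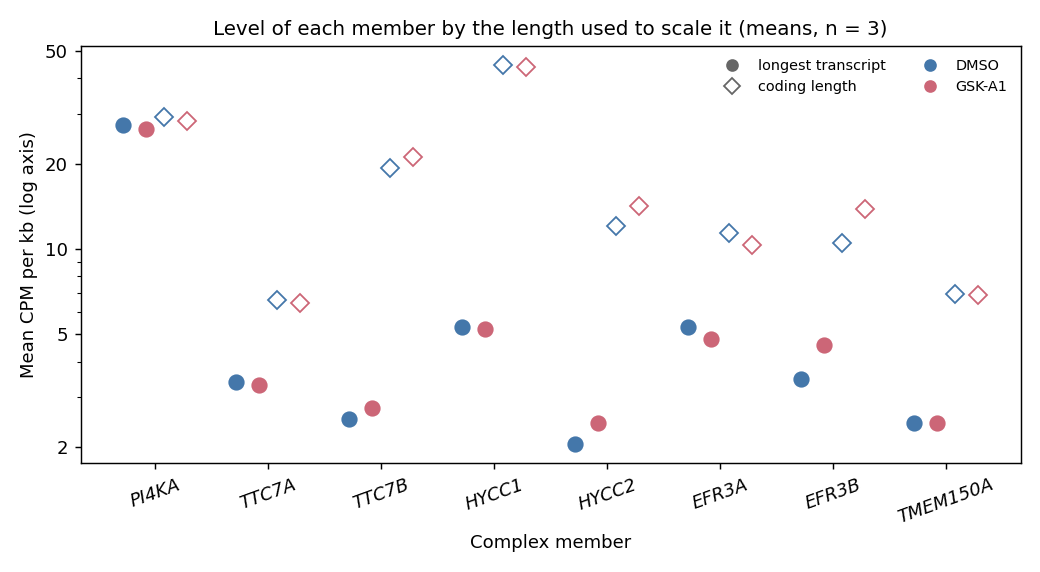
Mean level of each complex gene in CPM per kb (log axis, n = 3 libraries per group) by the longest transcript (filled circles) and by coding length (open diamonds), for DMSO (blue) and GSK-A1 (red). PI4KA is at 27.3 and 29.3 by the 2 lengths with DMSO, while TTC7B moves from 2.52 to 19.4 and HYCC1 from 5.31 to 44.7.

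The summed counts of a pair differed less between groups than the ratio within it. The EFR3 pair summed to 54.8 ± 0.89 CPM with DMSO and 60.3 ± 1.31 CPM with GSK-A1, a log2 difference of 0.14. The TTC7 pair summed to 66.5 ± 1.00 and 70.7 ± 1.17 CPM, a difference of 0.09. In both, the groups did not overlap (exact permutation p = 0.1, the smallest possible, and 0.15 adjusted over the 3 pairs). The same held for 40.5% of all tested genes taken singly. The HYCC pair summed to 89.1 ± 0.92 and 91.6 ± 5.50 CPM (exact permutation p = 0.9). Per kilobase of the longest transcript, the EFR3 pair came to 32.2% of the PI4KA level with DMSO and 35.5% with GSK-A1, the HYCC pair to 26.9% and 28.96%, and the TTC7 pair to 21.6% and 22.9%.

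Set against PI4KA within each library, EFR3B was higher by 0.44, HYCC2 by 0.29 and TTC7B by 0.17 on the log2 scale. For these the groups did not overlap (exact permutation p = 0.1 each, 0.233 adjusted over the 7 ratios). By CPM of single genes, 40.5% of all tested genes did not overlap either, and no such share was computed for ratios. EFR3A over PI4KA differed by -0.10 (exact permutation p = 0.4), with overlap between the groups. The ratios of TTC7A, HYCC1 and TMEM150A to PI4KA differed by 0.04 or less.

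Other genes around the complex were read from a list of 33. It held phosphoinositide genes, not only of the plasma membrane, phosphatidylserine synthases, calcineurin subunits and TMEM150 paralogs. Of the 33 genes, 32 were tested. Of these, 8 were higher and 3 lower, 34.4% in all beside 22.9% of all tested genes, with a median log2 fold change of 0.05 beside -0.01. By DESeq2 7 were higher and 0 lower, 7 of 32 beside 17.7% of all genes, and by upper-quartile scaling 4 were higher and 3 lower, beside 24.0%. With 1 library left out 3 to 13 passed, beside 12.7% to 28.1% of all genes: 3 without DMSO replicate 1 or DMSO replicate 2, and 4 without DMSO replicate 3 or GSK-A1 replicate 1. Among genes of phosphatidylinositol synthesis and transfer, 4 of 10 were higher and 1 lower, beside 12.0% and 10.9% of all tested genes. By DESeq2 3 of the 10 were higher and 0 lower, beside 10.5% and 7.14%. Without DMSO replicate 1 the counts were 1 and 0 (6.78% and 6.12% of all genes). Without GSK-A1 replicate 2 they were 6 and 0 (15.2% and 12.9%). PITPNB, a phosphatidylinositol transfer protein, went from 145 ± 1.46 to 164 ± 7.39 CPM (log2 change by edgeR 0.18 ± 0.04, adjusted p = 0.00373). PITPNC1, of the same family, went from 21.5 ± 0.53 to 25.6 ± 2.21 CPM (log2 change by edgeR 0.25 ± 0.06, adjusted p = 0.0085). CDS1, which makes the CDP-diacylglycerol used for phosphatidylinositol synthesis, went from 40.1 ± 0.54 to 45.3 ± 1.99 CPM (log2 change by edgeR 0.17 ± 0.05, adjusted p = 0.0132). PITPNM3 fell from 5.43 ± 0.09 to 4.42 ± 0.25 CPM (log2 change by edgeR -0.29 ± 0.09, adjusted p = 0.0279).

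PITPNB and PPP3CC, a subunit of calcineurin, passed in all 16 other analyses, PITPNC1 in 15 and CDS1 in 14. Of the genes called lower, PITPNM3 passed in 9, PIP5K1C in 8 and OSBPL5 in 7. With 1 library left out, PITPNM3 and PIP5K1C passed in 1 of 6 analyses each and OSBPL5 in 0, with edgeR adjusted p-values of up to 0.116, 0.215 and 0.156 over the other analyses.

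None of the 3 other phosphatidylinositol 4-kinases passed the threshold in edgeR, none had an unadjusted p under 0.05 there, and none passed by DESeq2 or limma-voom. Of the 16 other analyses, PI4KB passed as higher in 3 and PI4K2B in 1. These were limma-voom with library weights, the GC trend removed, and GSK-A1 replicate 2 or 3 left out. PI4KB, a Golgi kinase, was at 116 CPM with DMSO and 120 CPM with GSK-A1 (log2 change by edgeR 0.05 ± 0.04, adjusted p = 0.353). PI4K2A was at 32.8 and 30.9 CPM (log2 change by edgeR -0.09 ± 0.05, adjusted p = 0.202). PI4K2B was at 41.3 and 45.6 CPM (log2 change by edgeR 0.14 ± 0.07, adjusted p = 0.179). Both make phosphatidylinositol 4-phosphate on endosomes and the trans-Golgi network.

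Of the 3 kinases that turn phosphatidylinositol 4-phosphate into the bisphosphate, 1 was higher and 1 lower, beside 12.0% and 10.9% of all tested genes. With any 1 DMSO library or GSK-A1 replicate 1 left out, 0 of the 3 were called, beside 12.7% to 15.9% of all genes. The lower one, PIP5K1C, went from 43.5 ± 0.90 to 39.4 ± 1.23 CPM (log2 change by edgeR -0.14 ± 0.05, adjusted p = 0.0330). Of the 4 genes that remove or exchange phosphatidylinositol 4-phosphate, 2 were higher and 1 lower, beside the same shares of all genes. With upper-quartile scaling 0 were higher, as without DMSO replicate 2 or 3 or GSK-A1 replicate 1, beside 6.77% to 9.40% of all genes. OSBPL5, which exchanges it for phosphatidylserine at contacts with the endoplasmic reticulum, fell from 18.9 ± 0.55 to 16.6 ± 1.09 CPM (log2 change by edgeR -0.18 ± 0.06, adjusted p = 0.0436). None of the 2 phosphatidylserine synthases and none of the 5 phosphatases that remove the 5-phosphate passed in edgeR, DESeq2 or limma-voom, with 0 and 1 at an unadjusted p under 0.05 in edgeR. INPP5A, a 5-phosphatase named after its values were seen, was called higher with the GC trend removed and without GSK-A1 replicate 2 (lowest edgeR adjusted p = 0.0350).

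Of the remaining group, the calcineurin subunits and the TMEM150 paralogs, 1 of 5 tested genes was higher, beside 12.0% of all tested genes. PPP3CC, a catalytic subunit of calcineurin, a calcium-activated phosphatase known to bind HYCC1, went from 19.3 ± 0.47 to 22.5 ± 0.63 CPM (log2 change by edgeR 0.22 ± 0.05, adjusted p = 0.00815). TMEM150C, a paralog of TMEM150A, was at 9.13 and 8.90 CPM (log2 change by edgeR -0.04 ± 0.07, adjusted p = 0.746). TMEM150B was at 0.06 and 0.08 CPM and was not tested.

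**Figure D5:**
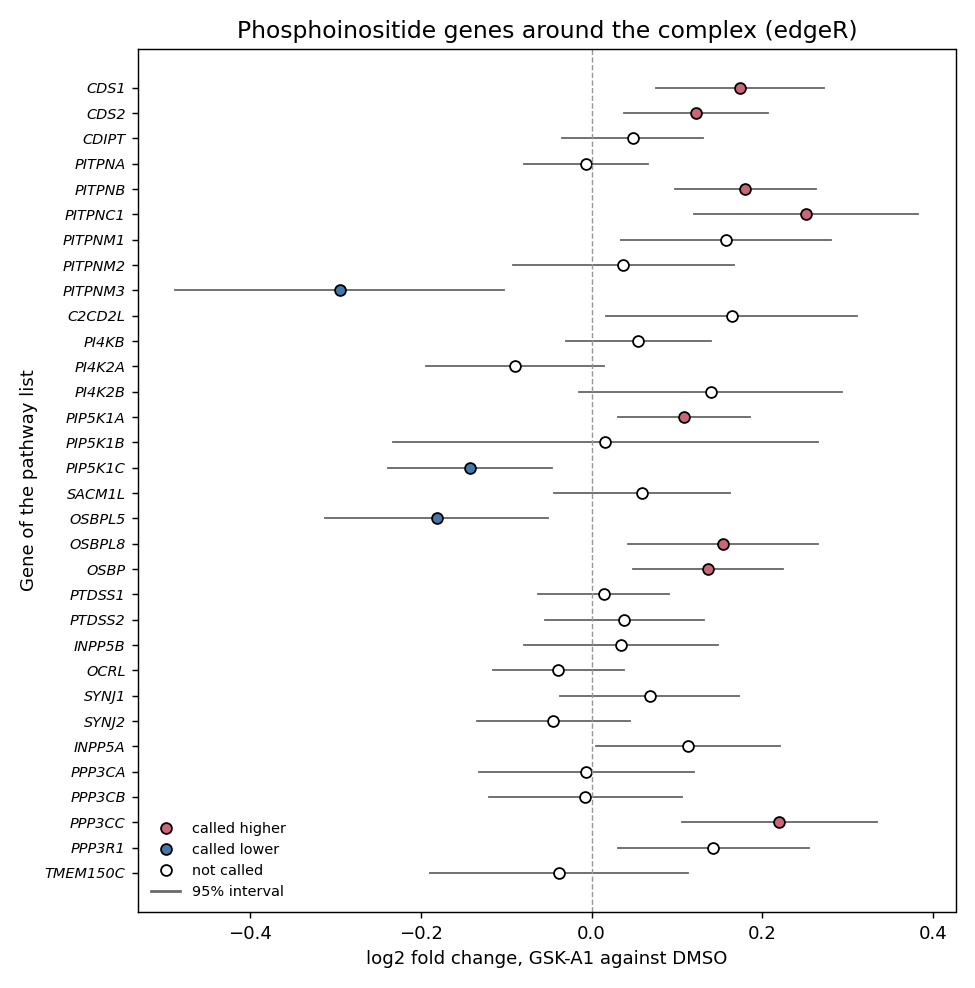
Log2 fold change, GSK-A1 against DMSO, with 95% intervals (edgeR, n = 3 per group) for the 32 tested genes of the list around the complex; red points were called higher, blue lower, open points neither. The 8 red points lie between 0.11 and 0.25 and the 3 blue points between -0.29 and -0.14.

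The 3 genes whose pattern over the 6 libraries was most like that of EFR3B were RNF169, SLC6A8 and ZNF609, with Pearson r of log2 CPM of 0.997, 0.995 and 0.994. RNF169, a ubiquitin ligase family protein found at DNA breaks, went from 87.9 to 112 CPM. SLC6A8, the creatine transporter, went from 506 to 651 CPM, and the nuclear protein ZNF609 from 81.3 to 88.1 CPM. For each of them GSK-A1 replicate 2 was the lowest of the treated libraries, as it was for EFR3B. The libraries share the treatment and the step between groups, and r is a description of these 6 points.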

How the data were processed

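RNA from 6 HEK293 samples was sequenced with a TruSeq stranded kit, per the labels. The authors deposited raw read counts per gene for 63140 genes. The submitters' processing notes name cutadapt 5.1, STAR 2.7.11b, featureCounts of Subread 2.1.1, DESeq2 1.38.0 and GRCh38.p13, with no role or order. The strand setting and the handling of multi-mapping reads are not given in the sources used here, so overlapping genes on opposite strands and near-identical copies may share reads.

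Counts were fitted in edgeR 4.0.16 (R 4.3.3) with TMM scaling (factors from 0.993 to 1.00), filterByExpr (smallest count 10, smallest total 15) and robust quasi-likelihood tests. P-values were adjusted by Benjamini-Hochberg over 16754 genes, and calls were made at 0.05. Totals of 33040178 to 47777233 counts gave a common biological coefficient of variation of 4.06%. CPM values are TMM-scaled. Shares used exact permutation tests over libraries. Gene positions and lengths came from GENCODE 29 (GRCh38) and promoter windows from RefSeq (GRCh38.p14).

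The fit was tested on simulated data, where the share of false calls was above the adjusted p threshold, so counts of calls and their background shares may be too high. The 16 other analyses were RLE, upper-quartile and total-count scaling, no filter, a filter of 1 CPM in 3 libraries, a replicate block, DESeq2 1.42.0, limma-voom 3.58.1 with and without library weights, removal of a GC trend (loess span 0.3), and each library left out in turn. An adjusted p of 0.01 was also applied. The exon-union length and the difference between paralogs' fitted fold changes were chosen after seeing the data. The members and gene lists were chosen with earlier results of these data known. Named genes are all 8 members, their pseudogenes and overlapping protein-coding genes, and, of the pathway list, up to 4 called genes of smallest p in each direction. Of the overlapping genes, SNAP29 (at PI4KA) and USP39 (at TMEM150A) did not pass the threshold (edgeR adjusted p = 0.791 and 0.839). Antisense genes that overlap TTC7A, TTC7B and HYCC2 had group means of 0.112 CPM or less and were not tested. The other phosphatidylinositol 4-kinases, the TMEM150 paralogs and the 3 genes most correlated with EFR3B (mean of at least 5 CPM) are also named.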

Additional observations from a re-analysis of the deposited data

How the results depend on the processing

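EFR3B and HYCC2 passed the threshold as higher in all 16 other analyses. The 3 paralog shares kept their direction in all 11 alternatives, the left-out libraries included. As the groups did not overlap in any pair, neither a left-out library nor another length could turn that direction, so it adds no support. Removing the GC trend brought the complex genes called to 5, against 3, adding HYCC1 and EFR3A as lower, beside 25.6% against 22.9% of all genes. Leaving out 1 library gave 2 to 4 complex genes, beside 12.7% to 28.1% of all genes. Over all genes 3835 were called, 1871 at an adjusted p of 0.01, and 2163 to 4890 with 1 library left out (2163, 2213 and 2206 without DMSO replicates 1, 2 and 3). Of the 32 tested genes of the pathway list, 11 were called, beside 22.9% of all genes. The count was 7 with upper-quartile factors (24.0% of all genes) and 7 with DESeq2 (17.7%). At an adjusted p of 0.01 it was 3 (11.2%), and with 1 library left out 3 to 13 (12.7% to 28.1%). The cause of these shifts was not tested. Signs turned for TTC7A with the GC trend removed (0.018), with left-out values from -0.072 to 0.0033 (positive without GSK-A1 replicate 2), and for HYCC1, with left-out values from -0.066 to 0.016 (positive without GSK-A1 replicate 1 or 3). For TMEM150A the log2 fold change was 0.0033 with RLE factors, 0.0056 with no filter, 0.0034 with DESeq2, 0.099 with limma-voom and library weights and 0.061 with the GC trend removed, and -0.083 to 0.081 with 1 library left out (positive without DMSO replicate 1 or 2 or GSK-A1 replicate 2). The deviations of same-numbered libraries correlated weakly (0.011, 0.019 and 0.032), beside -0.033 to 0.012 for libraries of different numbers. Each DMSO library correlated best with its own number, and GSK-A1 replicate 1 did not (0.011, beside 0.012 with DMSO replicate 2). Values this small cannot decide whether same-numbered libraries were paired. With the replicate block 4127 genes (24.6% of all tested), 3 complex genes and 13 pathway genes were called. The share differences were 2.94, 3.81 and 9.22 points (exact sign-flip p = 0.25, the smallest possible). TMEM150A had the lowest CPM of the 8 genes, at 5.64 with DMSO, and the largest SE, and the part of depth in that SE was not tested.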

Other observations

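Among the HEK293 markers, PAX2 went from 2.71 to 2.00 CPM with GSK-A1 and was called lower, while KRT8 (147 to 159 CPM) and VIM (1085 to 1217 CPM) were called higher. LHX1, NEFL and KRT18 did not pass the threshold in edgeR. The part of these shifts in the results for the complex genes was not tested.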
